A study of Mus musculus with 18 samples.

Results

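The genes described here encode the subunits of the mitochondrial respiratory chain and of ATP synthase. They were taken by name from the arrays: every gene name that begins with Nduf, Uqcr, Atp5 or Cox4 to Cox8, together with Sdha, Sdhb, Sdhc, Sdhd and Cyc1. This gave 83 of the 25205 gene names tested, read by 114 probes, of which 110 passed the filter on dim probes. All 83 names kept at least 1 probe, and each gene was read by the brightest of its probes. The set held 36 subunits of complex I, 4 of complex II, 8 of complex III, 17 of complex IV and 15 of complex V. The other 3 names belong to no complex: Ndufaf1 is an assembly factor of complex I, Atp5s is now called Dmac2l, and Cox4nb is now called Emc8 and belongs to a membrane complex of the endoplasmic reticulum. Cox7a2l was counted with complex IV by its name, although its protein is known for joining complexes III and IV into supercomplexes. Ndufa4 was likewise counted with complex I by its name, although its protein is now assigned to complex IV. Of the 13 subunits encoded by mitochondrial DNA, 0 were found by name, and they are not analysed here.

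Complex I takes electrons from NADH and complex II takes them from succinate, and both hand them to coenzyme Q. Complex III passes them on to cytochrome c, complex IV gives them to oxygen, and complex V makes ATP from the proton gradient that results. Most subunits are encoded in the nucleus, and several small subunits of complex IV exist in isoforms that are known from heart and muscle (Cox6a2, Cox7a1, Cox8b), from testis (Cox6b2, Cox8c) or from lung (Cox4i2). Pluripotent stem cells are known to lean on glycolysis, and respiration is known to increase as they differentiate.

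The arrays compared 5 kinds of mouse RNA. Induced pluripotent stem cells (iPSC) labelled Dnmt3ab deficient, after the enzymes Dnmt3a and Dnmt3b that place new DNA methylation, came from 3 clones named 8, A6 and B2. The same 3 clones, under a label that adds some signs of differentiation, formed a second group, called the differentiating clones below. Control iPSC came from 4 lines numbered 3 to 6, and their genotype beyond the word control is not given in the labels used here. V6.5 ESC, a mouse embryonic stem cell line, and mouse embryonic fibroblasts (MEF) were each a single RNA read on 3 arrays, so the spread between cultures of either was not measured. All iPSC were grown on irradiated MEF feeders and passaged briefly on gelatin without fresh feeders before RNA was taken. In comparisons between groups of iPSC, each clone or line counted as 1 replicate, and p-values measure only the spread between these lines. Against V6.5 ESC and MEF the arrays were the replicates, and all 18 arrays shared 1 estimate of the spread. The p-values there measure the spread between arrays, of which 12 held neither V6.5 ESC nor MEF. The labels do not say whether the repeated arrays of a line came from separate cultures.

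The 18 arrays, each with 2 dyes, were read on 2 scan days. On the first, 6 arrays held the deficient iPSC beside V6.5 ESC or MEF, and on the second, 12 arrays held the control lines beside the differentiating clones. Comparisons across the days, deficient against control and differentiating against deficient, therefore cannot be told apart from the scan day. On the first day V6.5 ESC was always labelled with Cy5 and MEF always with Cy3, without a dye swap. The dye effect taken off in the comparisons with V6.5 ESC and MEF was thus estimated from the 12 arrays of the second day. The share of probes well above background per channel was 69.69% to 78.87% for the 6 arrays and 75.58% to 92.55% for the 12. For Dnmt3a, deficient clones had log2 signals of 8.97 to 9.87 and control lines 10.52 to 11.34, a difference of -1.49 (limma, adjusted p = 0.00537), while the Dnmt3b probe had 12.34 to 13.50 against 12.41 to 14.00 and did not pass the test (-0.32, adjusted p = 0.594). Whether either probe lies in a deleted part of its gene is not given in the sources used here. The summed signal of 8 pluripotency markers was 18.23 to 18.39 on the log2 scale in deficient iPSC, 17.90 to 18.25 in differentiating clones, 17.72 to 18.30 in control lines, 18.98 in V6.5 ESC and 12.83 in MEF. In the iPSC the largest part of this sum was Dppa5a, with means of 17.56 in deficient iPSC and 17.62 in differentiating clones. Taken singly, 6 of the 8 markers were lower and 0 higher in the differentiating than in the deficient state (limma, adjusted p under 0.05). The summed signal of 12 fibroblast markers was 20.04 in MEF, 15.68 to 16.71 in control lines and 14.49 to 15.58 in the other pluripotent RNAs. The summed signal of 13 endoderm markers was 15.39 to 16.66 in differentiating clones against 13.64 to 14.72 in control lines. It was 13.51 to 15.04 in deficient clones, 13.39 in V6.5 ESC and 15.93 in MEF. This sum therefore does not set the differentiating clones apart from fibroblasts. In such bulk RNA, fewer cells of a type and less RNA per cell cannot be told apart.

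A level is the log2 signal of a gene's probe in a line, set against the same probe in other lines only. A difference is given in log2 units with its standard error (SE), and a member was called when limma's p, adjusted by Benjamini-Hochberg over all 25205 genes, was under 0.05. Of the 83 members, 80 lay well above background in every channel. The exceptions were isoforms of complex IV. Cox8b was above background in 0 of 6 deficient and 0 of 3 MEF channels, Cox8c in 0 of 3 MEF and 10 of 12 control channels, and Cox4i2 in 11 of 12 differentiating channels. Within a kind of RNA, the median SD of the members between lines was 0.0709 in control lines, 0.078 in deficient clones and 0.0678 in differentiating clones, against 0.0807, 0.0704 and 0.0609 over all genes. The largest SD belonged to Cox8c in the control lines (0.419) and to Atp5f1, which encodes subunit b of ATP synthase, in both states of the clones (0.349 and 0.332).

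**Figure D1:**
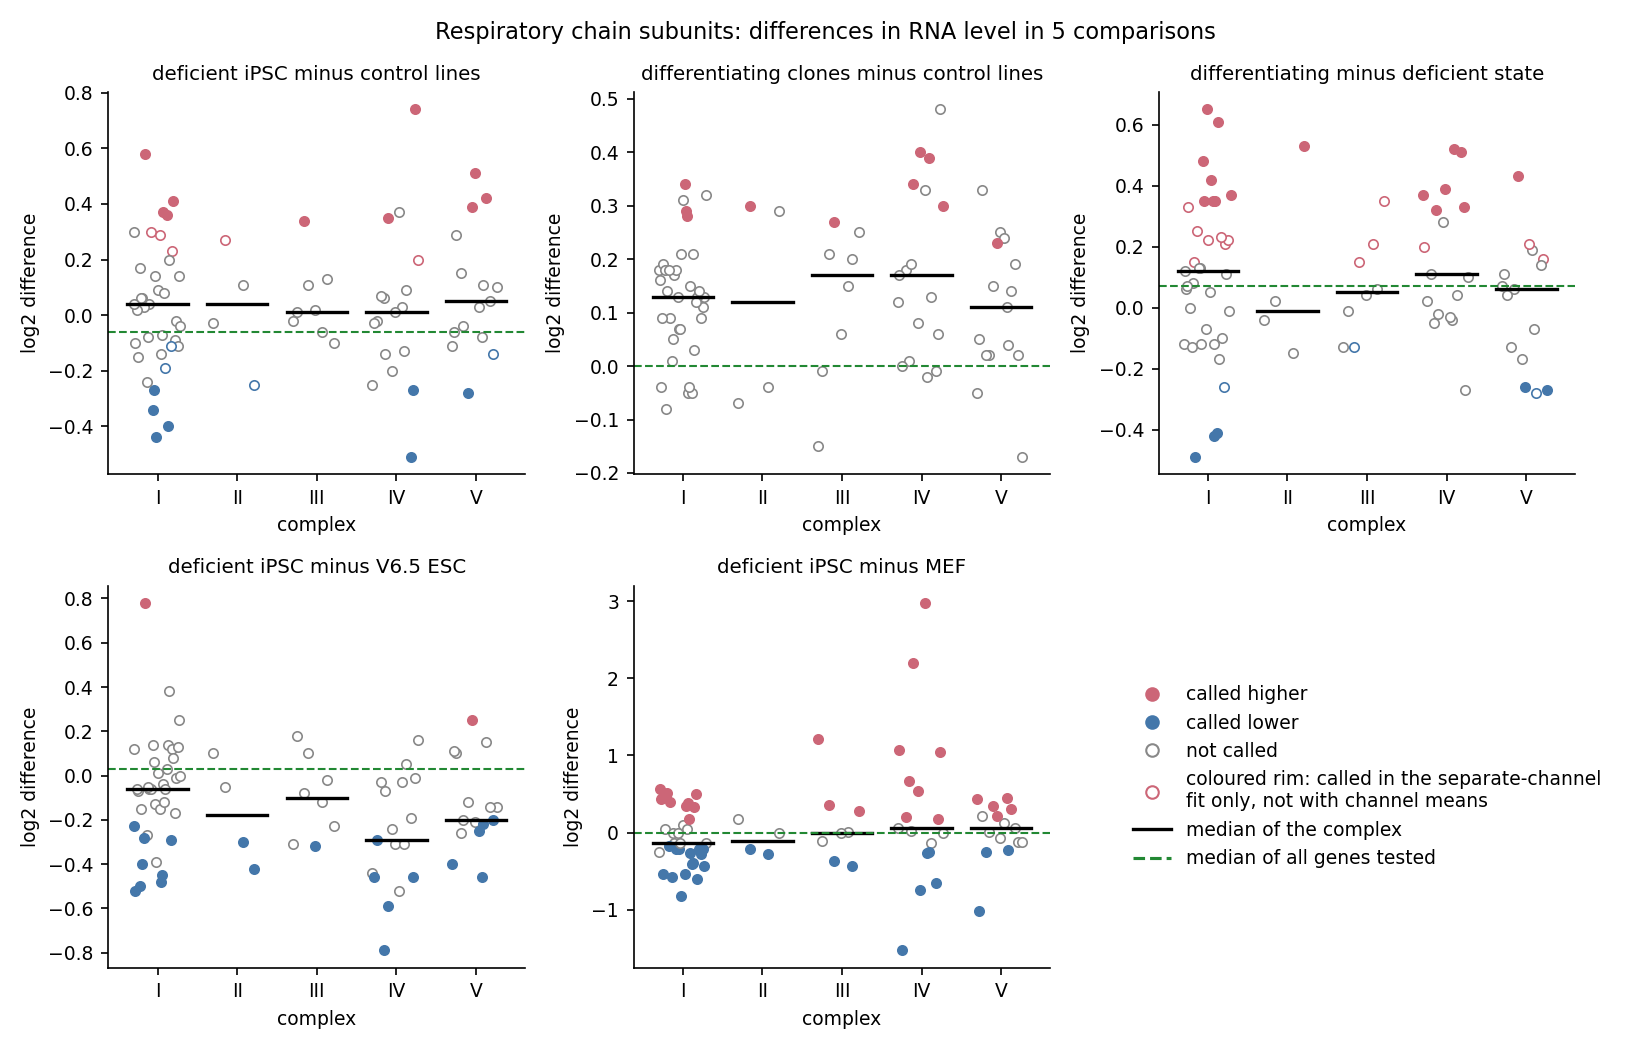
Log2 differences (vertical axes, 1 point per structural subunit) by complex (horizontal axes) in the 5 comparisons; filled points were called higher (red) or lower (blue), grey open points were not called, points with a coloured rim were called in the separate-channel fit only, black bars are medians of a complex and green dashed lines medians of all genes tested. Against V6.5 ESC the medians of all 5 complexes lie below the line of all genes, against control lines the differentiating clones lie above it, and against MEF the points of complex IV spread from -1.53 to 2.98.

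Between deficient iPSC and MEF, the isoforms of complex IV gave the largest differences among the members. Cox7a1 and Cox6b2 were higher in the iPSC by 2.98 and 2.20 log2 units, and Cox6a2 was lower by 1.53. In all, 29 members rose and 28 fell, out of a background in which 58.1% of all genes were called, 28.1% higher and 30% lower, and the median difference was 0.00 for members and -0.01 for all genes. Of the members, 68.7% were called. By complex, 11 of 36 members of complex I rose and 16 fell, against 8 and 5 of 17 in complex IV, 5 and 3 of 15 in complex V, 3 and 2 of 8 in complex III, and 0 and 2 of 4 in complex II.

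Cox7a1, the heart and muscle form of subunit VIIa, stood at 13.22, 13.04 and 12.96 in deficient clones 8, A6 and B2, at 13.60 in V6.5 ESC and at 10.08 in MEF. Control lines 3 to 6 had 12.73, 12.52, 12.50 and 13.08, and the differentiating clones had 12.79, 13.27 and 13.06. All pluripotent RNAs thus lay far above MEF. The difference between deficient iPSC and MEF was 2.98 ± 0.187, or 7.88-fold (limma, adjusted p = 4.93e-10). The files give no genome position for this probe. Its ubiquitous counterpart Cox7a2 differed from MEF by 0.20 ± 0.0564 in the same direction (adjusted p = 0.00559), with levels of 13.97 to 14.31 over all lines.

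Cox6b2, the testis form of subunit VIb (probe on chromosome 7 at 4326339 to 4326398, mouse build mm7), was likewise highest in V6.5 ESC and lowest in MEF. Its levels were 11.66, 11.60, 11.76 and 11.83 in the control lines, 12.13, 12.06 and 12.01 in the deficient clones, 12.03, 12.07 and 12.05 in the differentiating clones, 12.67 in V6.5 ESC and 9.85 in MEF. V6.5 ESC had the highest value, both states of the clones lay above all 4 control lines, and MEF lay below every line. The difference from MEF was 2.20 ± 0.0859, or 4.59-fold (adjusted p = 1.43e-12). Cox6b1, the ubiquitous form, had 10.58 to 10.86 over all lines and did not pass the test against MEF (-0.13 ± 0.0588, adjusted p = 0.0736).

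**Figure D2:**
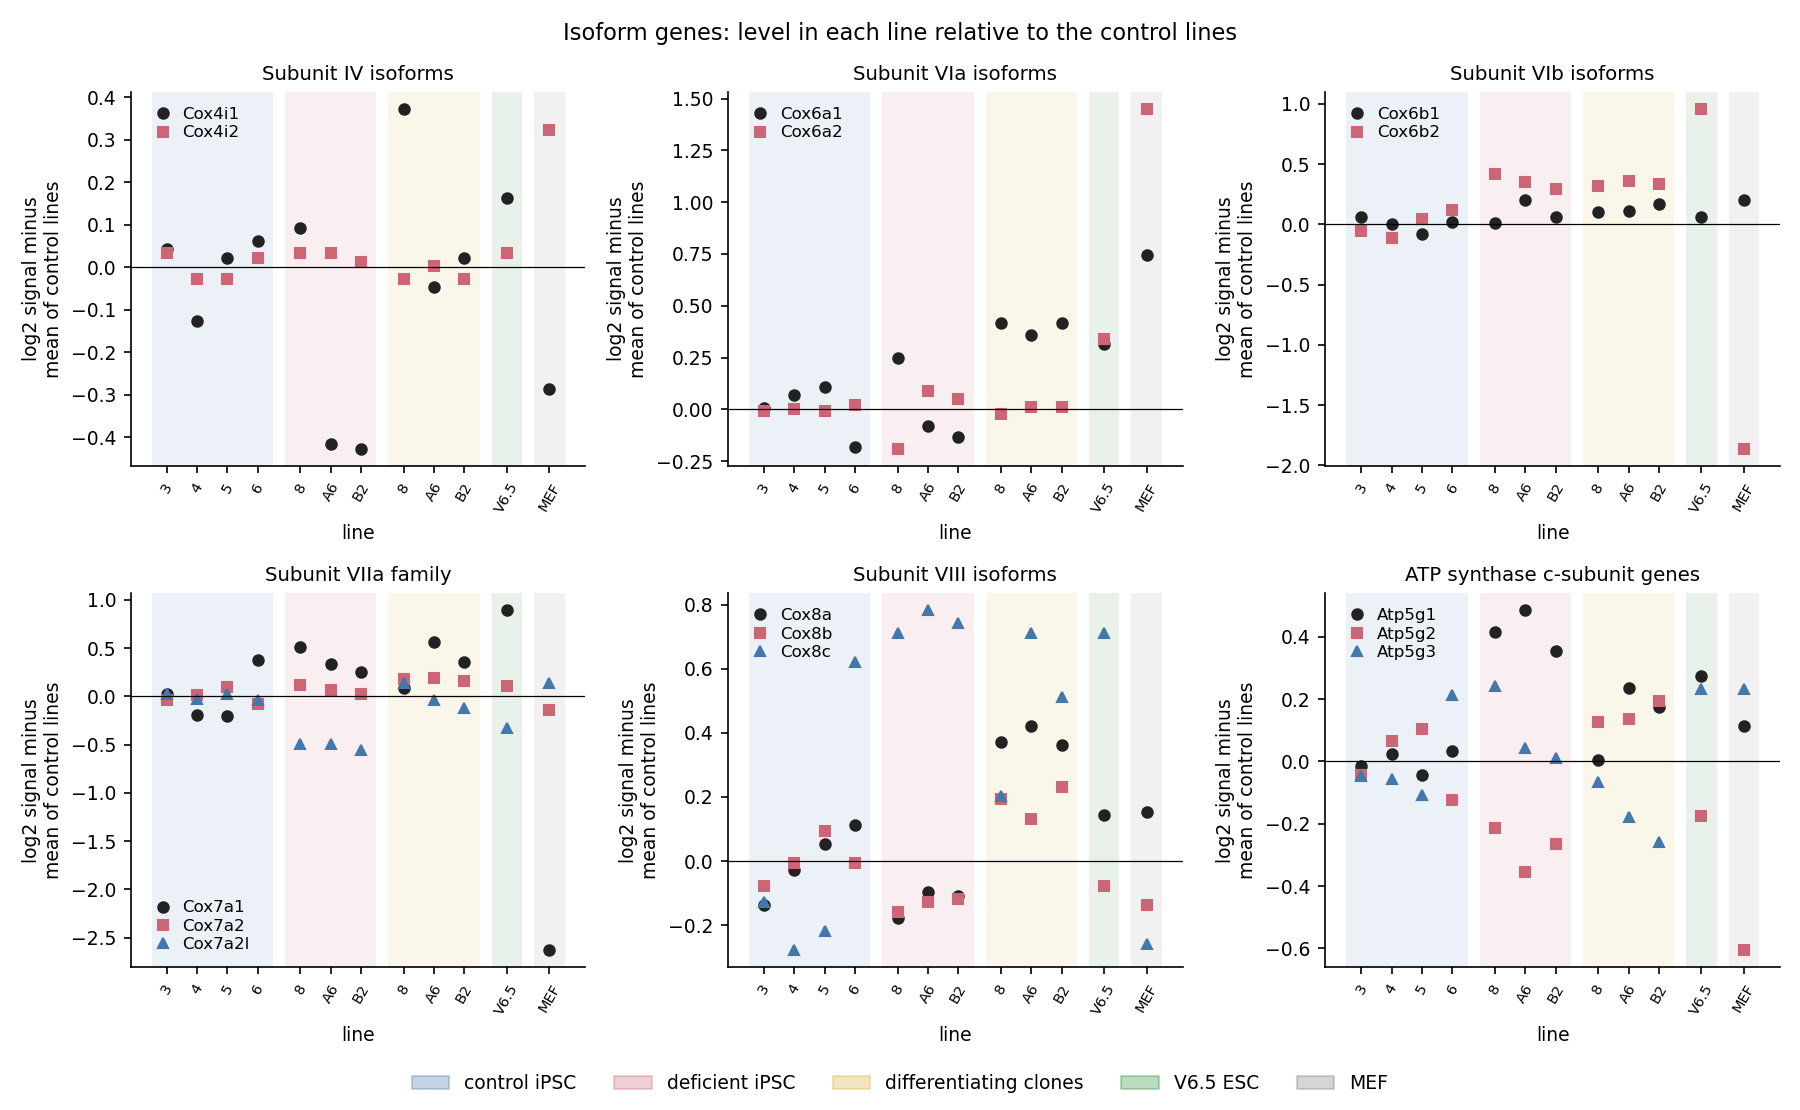
Level of each isoform gene in each line (vertical axes, log2 signal minus the mean of the 4 control lines; each point is 1 line of the kind named by the shading). In MEF, Cox7a1 and Cox6b2 lie far below every pluripotent line and Cox6a2 far above; Cox7a2l is low in the 3 deficient clones and Cox8a is high in the 3 differentiating clones.

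The promoters of these 2 isoform pairs are shown because the tissue-restricted and the ubiquitous gene differed so widely between iPSC and MEF. The sequences are the 250 bases before the transcription start in RefSeq (build GRCm38.p6), written 5′ to 3′ on the strand of the gene, with CpG dinucleotides, the sites that DNA methyltransferases act on, in capitals. Cox6b2 lies at chr7:4753095-4753344 on the minus strand and holds 8 CpG. Cox6b1 lies at chr7:30626115-30626364 on the minus strand and holds 14. Cox7a1 lies at chr7:30183921-30184170 on the plus strand and holds 4. Cox7a2 lies at chr9:79759854-79760103 on the minus strand and holds 14. In each pair the tissue-restricted gene had fewer CpG than the ubiquitous gene, as counted in these windows; methylation of these sites was not measured on the arrays.
Cox6b2: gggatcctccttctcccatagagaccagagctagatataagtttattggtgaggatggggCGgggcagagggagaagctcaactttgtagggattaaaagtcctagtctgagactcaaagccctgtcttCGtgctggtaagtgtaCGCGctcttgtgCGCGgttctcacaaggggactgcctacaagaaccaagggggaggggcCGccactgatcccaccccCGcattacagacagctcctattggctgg
Cox6b1: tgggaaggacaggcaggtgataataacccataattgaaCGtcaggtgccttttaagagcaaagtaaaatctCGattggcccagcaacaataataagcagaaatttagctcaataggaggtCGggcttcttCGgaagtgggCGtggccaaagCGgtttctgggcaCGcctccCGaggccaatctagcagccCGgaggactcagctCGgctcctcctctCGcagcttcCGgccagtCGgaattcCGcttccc
Cox7a1: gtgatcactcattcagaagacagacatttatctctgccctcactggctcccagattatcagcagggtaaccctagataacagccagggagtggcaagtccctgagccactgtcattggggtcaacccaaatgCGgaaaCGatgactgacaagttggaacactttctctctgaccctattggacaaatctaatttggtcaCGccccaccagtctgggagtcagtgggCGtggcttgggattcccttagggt
Cox7a2: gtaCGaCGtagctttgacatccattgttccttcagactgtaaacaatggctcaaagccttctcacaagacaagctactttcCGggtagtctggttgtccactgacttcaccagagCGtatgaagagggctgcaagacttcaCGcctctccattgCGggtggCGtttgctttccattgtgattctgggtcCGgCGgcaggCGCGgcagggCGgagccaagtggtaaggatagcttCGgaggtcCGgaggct

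The remaining isoforms of complex IV moved in both directions against MEF. Cox6a2, the heart and muscle form of subunit VIa (chromosome 7 at 124302204 to 124302263, mm7), had 8.20, 8.48 and 8.44 in the deficient clones and 9.84 in MEF, a difference of -1.53 ± 0.0762 (adjusted p = 2.78e-11). Its ubiquitous counterpart Cox6a1 was also lower in the iPSC, with 17.20, 16.87 and 16.82 against 17.70 (-0.74 ± 0.127, adjusted p = 8.83e-05). Both forms of this subunit were therefore lower than in MEF. Cox8c, the testis form of subunit VIII, was not well above background in MEF, and its level in deficient iPSC was at least 2.01-fold higher (adjusted p = 0.00491). The ubiquitous Cox8a fell (-0.25 ± 0.0883, adjusted p = 0.0216), and Cox8b was not above background on either side. Cox4i2 fell by 0.27 ± 0.0424 (adjusted p = 3.01e-05), while Cox4i1, the common form of subunit IV, did not pass the test (0.06 ± 0.162, adjusted p = 0.79). Cox7a2l fell by 0.65 ± 0.0705 (adjusted p = 5.11e-07), and Cox7b rose by 0.54 ± 0.159 (adjusted p = 0.00834). Ndufa4 did not pass the test (-0.13, adjusted p = 0.0624).

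Of 14 subunits listed as central to their complexes, called core subunits below, 8 rose against MEF and 2 fell. Cyc1, the cytochrome c1 of complex III (chromosome 15 at 76428061 to 76428120, mm7), had 14.51, 14.47 and 14.46 in the deficient clones and 13.28 in MEF, a difference of 1.22 ± 0.0908, or 2.33-fold (adjusted p = 4.19e-09). The clones lay close together and far above MEF. Cox5a, subunit Va of complex IV, rose by 0.67 ± 0.148 (adjusted p = 0.00094). The 2 ATP synthase subunits that make up the catalytic hexamer, Atp5a1 and Atp5b, rose by 0.44 ± 0.0806 and 0.45 ± 0.0797 (adjusted p = 0.000159 and 0.000122). In complex I, Ndufs1, Ndufs7 and Ndufv1, which carry redox centres, rose by 0.45, 0.50 and 0.57, and Uqcrc1 of complex III rose by 0.28. Sdhb, the iron-sulfur subunit of complex II, fell by 0.28. Sdha, Uqcrfs1, Cox4i1 and Atp5c1 did not pass the test, with differences of 0.17, -0.11, 0.06 and 0.01.

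Other members with large differences from MEF were Cox7c, a small subunit of complex IV, which rose by 1.07 ± 0.0815 (adjusted p = 5.87e-09), and Cox4nb, which rose by 1.13 ± 0.226 (adjusted p = 0.000372). Atp5l, which encodes subunit g in the membrane part of ATP synthase (chromosome 9 at 44854978 to 44855037, mm7), had 13.81, 13.69 and 13.78 in the deficient clones and 14.76 in MEF. The difference was -1.02 ± 0.0966, and all 3 clones lay below MEF (adjusted p = 8.47e-08). In complex I the accessory subunits Ndufa13 and Ndufa8 fell by 0.82 and 0.60. Of the 3 genes of the c-subunit of ATP synthase, which encode the same mature protein, Atp5g1 rose by 0.30 and Atp5g2 by 0.35, while Atp5g3 did not pass the test (-0.12, adjusted p = 0.373). For 2 members, Ndufab1 and Uqcrq, another dimmer probe of the gene was called in the opposite direction against MEF. Ndufab1 read 0.44 on its brightest probe and -1.06 on its dimmest, and Uqcrq read -0.37 and 0.63. With the processed signals of the scanner software in place of the background-corrected ones, 15 members rather than 28 were called lower than MEF. Over all genes that setting called 15168 rather than 14645, with 51.1% rather than 48.4% of the calls higher.

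Against V6.5 ESC, read on the same arrays but always in Cy5, 21 of the 83 members fell in the deficient iPSC, 2 rose and 60 were not called. Of all genes 5.32% were called, 3.48% higher and 1.84% lower. The median difference was -0.12 for members and 0.03 for all genes. Complex IV had a median of -0.29 and complex V of -0.20, against -0.18, -0.10 and -0.06 for complexes II, III and I. The genes that fell were 8 of 36 in complex I, 2 of 4 in complex II, 1 of 8 in complex III, 5 of 17 in complex IV and 5 of 15 in complex V. Each of the 3 clones lay below V6.5 ESC in 38 members (45.8%), compared with 21.2% of all genes.

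In complex IV, Cox5a (chromosome 9 at 57559452 to 57560000, mm7) had 16.48, 16.05 and 15.98 in clones 8, A6 and B2 and 16.92 in V6.5 ESC. The 3 clones were below V6.5 ESC by 0.37, 0.98 and 1.02 on the log2 scale, so that clone 8 lay closest to it. The fitted difference was -0.79 ± 0.148, or 1.73-fold lower (limma, adjusted p = 0.00465), while a second, dim Cox5a probe gave 0.03. Cox6b2 fell by 0.59 ± 0.0859 (adjusted p = 0.000872), evenly over the clones at -0.61, -0.55 and -0.60. Cox5b, the zinc-binding subunit of complex IV, fell by 0.46 ± 0.0505 (adjusted p = 0.000105), and Cox7c by 0.46 ± 0.0815 (adjusted p = 0.00344). Cox6a2 fell by 0.29 ± 0.0762 (adjusted p = 0.0332), with a much larger difference in clone 8 (-0.63) than in clones A6 and B2 (-0.11 and -0.22). The other isoforms named above did not pass the test: Cox4i1 was at -0.44 ± 0.162 (adjusted p = 0.143), Cox7a1 at -0.52 ± 0.187 (adjusted p = 0.133), Cox6a1 and Cox8a at -0.31 each, Cox7a2l at -0.19, Cox7b at -0.24, and Cox6b1, Cox7a2, Cox4i2, Cox8b, Cox8c and Ndufa4 between -0.07 and 0.05.

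In complex I, Ndufab1, the mitochondrial acyl carrier protein, had 14.04, 13.92 and 14.02 in the clones and 14.49 in V6.5 ESC. All 3 clones lay below it, and the gene fell by 0.52 ± 0.0514 (adjusted p = 4.18e-05) on this probe. Its dimmer probes read 0.35 and 0.04 and did not pass the test. The accessory subunits Ndufb4, Ndufa6 and Ndufb8 fell by 0.50, 0.48 and 0.45, while a second, dim Ndufb8 probe gave -0.02. Ndufa6 differed by -0.46, -0.48 and -0.46 in clones 8, A6 and B2. Of the core subunits of complex I, Ndufs7 and Ndufv1 fell by 0.29 and 0.23, while Ndufs1 (-0.06) did not pass the test. Ndufa11, an accessory subunit of the membrane arm (chromosome 17 at 54928975 to 54929034, mm7), went the other way: the clones had 11.58, 11.98 and 11.93 and V6.5 ESC had 11.07. It rose by 0.78 ± 0.156 (adjusted p = 0.00717), and a second probe rose by 0.65 (adjusted p = 0.0174).

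In complex V, Atp5b had 17.16, 16.88 and 16.83 in the clones against 17.38 in V6.5 ESC and fell by 0.46 ± 0.0797 (adjusted p = 0.00253). Atp5a1 fell by 0.40 ± 0.0806 (adjusted p = 0.00736). For both genes clone 8 lay nearest to V6.5 ESC, at -0.13 and -0.12, with clones A6 and B2 at -0.59 and -0.65 for Atp5b and at -0.50 and -0.59 for Atp5a1. Atp5h, Atp5o and Atp5d, which belong to the stalks, fell by 0.25, 0.22 and 0.20, Atp5c1 did not pass the test (-0.20, adjusted p = 0.0589), and Atp5k, subunit e of the membrane part, rose by 0.25 ± 0.0654 (adjusted p = 0.0332). Atp5g1, Atp5g2 and Atp5g3 did not pass the test (0.15, -0.12 and -0.14). In complex II, Sdhd, a membrane anchor, fell by 0.42 and Sdhb by 0.30, while Sdha (0.10) and Sdhc (-0.05) did not pass the test. In complex III, Uqcrc2 fell by 0.32, and Uqcrc1 (-0.23, adjusted p = 0.0503), Cyc1 (-0.31, adjusted p = 0.0575) and Uqcrfs1 (0.18, adjusted p = 0.118) did not pass the test.

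**Figure D3:**
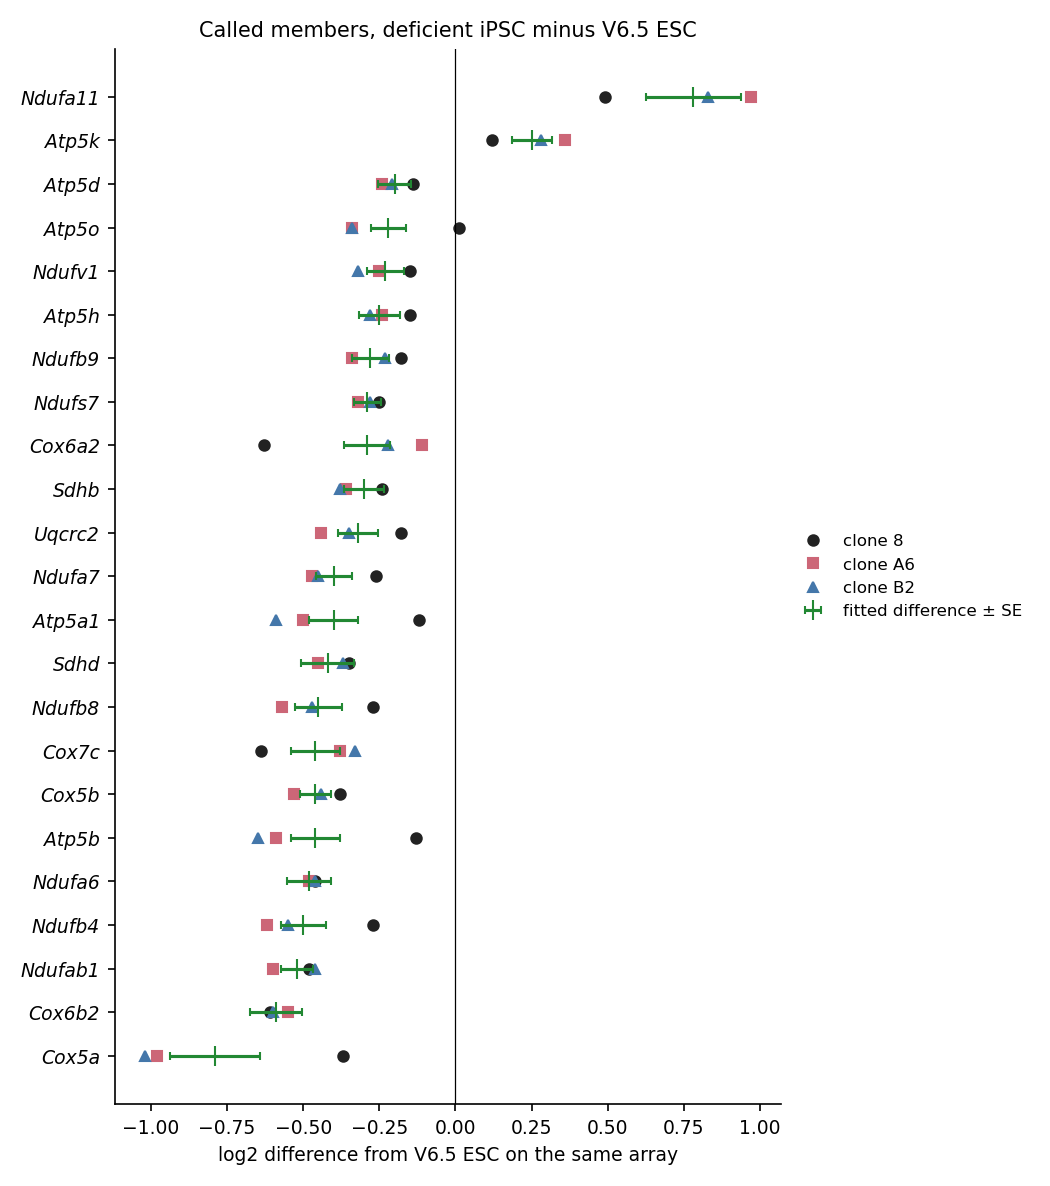
Log2 difference of each deficient clone from V6.5 ESC on the same array (horizontal axis; black circles clone 8, red squares clone A6, blue triangles clone B2) for the called members (vertical axis), with the fitted difference and its SE in green. Clone 8 is nearest to 0 for Cox5a, Atp5b and Atp5a1 and furthest for Cox7c and Cox6a2; for Atp5o it lies at 0.01.

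By clone, the median member lay at -0.08, -0.16 and -0.12 relative to V6.5 ESC in clones 8, A6 and B2. Without clone A6 the count of members that fell was 11, and without clone B2 it was 10, with 0 rises in either case. Of all 25205 genes these fits called 440 and 381, against 1341 with all 3 clones, so the loss was not particular to the members. The summed pluripotency markers were higher in V6.5 ESC (18.98) than in the 3 clones (18.23 to 18.39), and 2 of the 8 markers fell. Endoderm markers summed to 15.04 in clone 8, 13.51 in A6, 13.53 in B2 and 13.39 in V6.5 ESC. The part of these markers in the result was not tested. With V6.5 ESC a single RNA, its own variation between cultures is not in the SE.

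Between differentiating clones and control lines, which shared arrays and scan day, 10 members rose and 0 fell, where 4.71% of all genes were called, 2.27% higher and 2.45% lower. At an unadjusted p under 0.05 limma gave 40 members higher and 1 lower, where 5314 of all 25205 genes passed in either direction. The median difference was 0.14 for members and 0.00 for all genes, and 69 of 83 members (83.1%) had a value above 0, against 51.5% of all genes. The direction was shared by all 3 clones, higher in 3 of 3, for 55 members (66.3%), against 26.3% of all genes. By clone the median member lay at 0.11, 0.13 and 0.17 in clones 8, A6 and B2. The rises were 4 of 17 members of complex IV, 3 of 36 of complex I and 1 each of complexes II, III and V, and the medians by complex ran from 0.11 in complex V to 0.17 in complexes III and IV.

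In complex IV, Cox6a1 (chromosome 5 at 114566550 to 114566609, mm7) had 17.37, 17.31 and 17.37 in the differentiating clones and 16.96, 17.02, 17.06 and 16.77 in the control lines. The groups did not overlap, and the difference was 0.40 ± 0.0740 (limma, adjusted p = 0.0403). Cox8a (chromosome 19 at 7035098 to 7035157, mm7) had 15.88, 15.93 and 15.87 against 15.37, 15.48, 15.56 and 15.62. These groups did not overlap either, with a difference of 0.39 ± 0.0633 (adjusted p = 0.0332). Cox6b2, with the values given above, rose by 0.34 ± 0.0598 (adjusted p = 0.0374). Cox6c, another small subunit of complex IV, had 15.49, 15.53 and 15.57 against 15.18 to 15.27 and rose by 0.30 ± 0.0367 (adjusted p = 0.027). The other isoforms did not pass the test: Cox7a1 differed by 0.33 (adjusted p = 0.358), Cox7a2 by 0.18 (0.0732), Cox8c by 0.48 (0.342), Cox8b by 0.19 (0.0791), Cox6b1 by 0.13 (0.145) and Cox4i1 by 0.12 (0.666), while Ndufa4 lay at 0.17 (0.0562), Cox7b at 0.08 (0.879), and Cox4i2, Cox6a2 and Cox7a2l between -0.02 and 0.00.

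In complex I, Ndufs5 (chromosome 4 at 123157395 to 123157454, mm7), a small accessory subunit, had 15.40, 15.54 and 15.58 in the differentiating clones against 15.09, 15.20, 15.18 and 15.17 in the control lines. It rose by 0.34 ± 0.0539 (adjusted p = 0.0314). Ndufa6 and Ndufb8 rose by 0.29 ± 0.0585 and 0.28 ± 0.0522 (adjusted p = 0.0478 and 0.0421). Sdhc, the cytochrome b subunit of complex II, rose by 0.30 ± 0.0530 (adjusted p = 0.0381), Uqcrq of complex III by 0.27 ± 0.0491 (adjusted p = 0.0404) and Atp5k of complex V by 0.23 ± 0.0320 (adjusted p = 0.0291). For each of these 6 genes the 3 clones lay above all 4 control lines. Of the 14 core subunits 0 were called; their differences ran from -0.15 for Cyc1 to 0.25 for Uqcrc1 (adjusted p = 0.393 and 0.066). The difference for Atp5g1 was 0.14, for Atp5g2 0.15 and for Atp5g3 -0.17, none of them past the test. Cox4nb had the lowest value, -0.73, and did not pass the test (adjusted p = 0.0799).

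**Figure D4:**
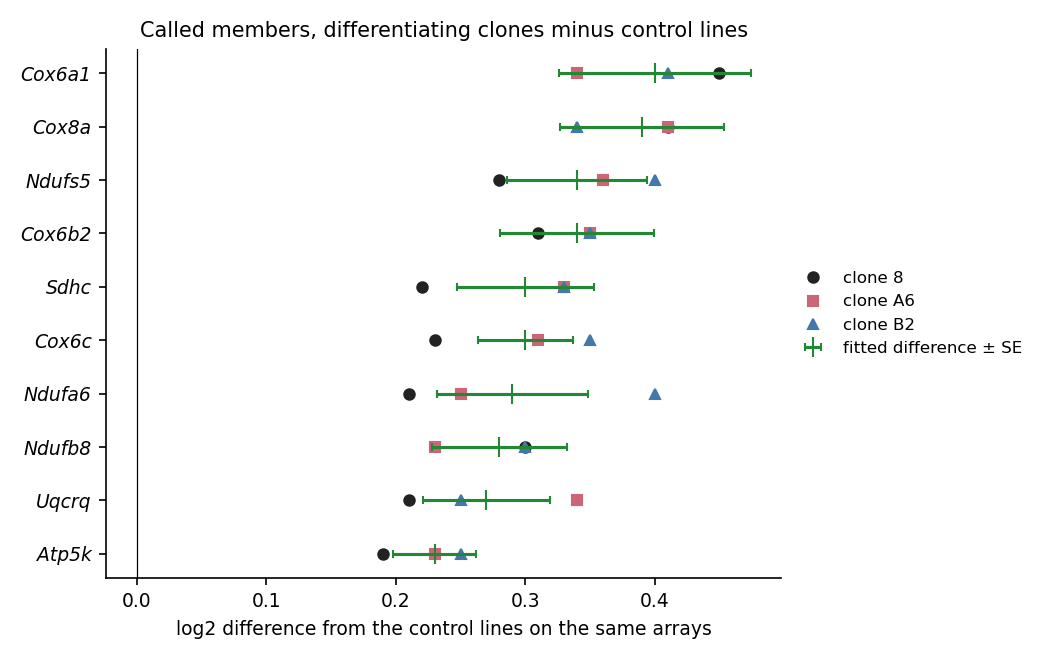
Log2 difference of each differentiating clone from the control lines on the same arrays (horizontal axis; black circles clone 8, red squares clone A6, blue triangles clone B2) for the 10 called members (vertical axis), with the fitted difference and its SE in green. All clone values lie above 0, from 0.19 for Atp5k in clone 8 to 0.45 for Cox6a1 in clone 8.

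These calls sat close to the threshold. Leaving out clone A6, clone B2, control line 3 or control line 4 left 0 members called. Of all 25205 genes these fits called 0, 0, 1 and 28, so the loss was not particular to the members. Leaving out control line 6 gave 21 members, with 3508 of all genes called. Without the dimmest array, chosen after the data were seen, 19 members rose and 1 fell, with 2247 of all genes called. With the replicate number as a block, which sets each clone against the control channels of its own arrays, 26 members rose and 2 fell. That fit called 4862 of all genes. Taking each line as the mean of its channels called 0 members and 577 of all genes. At an unadjusted p under 0.05 it gave 20 members higher, where 3847 of all genes passed in either direction. Endoderm markers summed to 16.66, 15.82 and 15.39 in differentiating clones 8, A6 and B2 against 13.64 to 14.72 in the control lines, with 5 of 13 called higher and 0 lower. Fibroblast markers summed to 15.04 to 15.58 against 15.68 to 16.71, with 3 of 12 called lower. Their part in the result was not tested.

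For the comparison that the series names, deficient iPSC against control lines, the lines were read on different scan days, and 46.4% of all genes were called, 15.3% higher and 31.1% lower. Among the members, 15 were called higher and 11 lower, with a median difference of 0.03 against -0.06 for all genes. On simulated data this fit called too many unchanged genes, and a fit on the mean of each line's channels, added after the data were seen, did not. Members are therefore said to have risen or fallen here only when both fits called them. By this rule 10 rose and 7 fell, where 9.73% and 19.4% of all genes did. The simulated data held no effect of scan day or slide, so agreement of the 2 fits does not tell whether a call comes from either. Without normalization between arrays the split of all calls moved from 32.9% higher to 96.7% higher and the median of all genes from -0.06 to 0.44, and 59 members were called higher and 2 lower. Directions in this comparison are thus relative to the median gene after normalization. Of 12 fibroblast and feeder markers, 10 were called lower and 1 higher in the deficient clones (median difference -1.27), with summed log2 signals of 14.71 to 14.81 against 15.68 to 16.71 in the control lines. Of 8 pluripotency markers 5 were called higher and 0 lower (median 0.62), and of 13 endoderm markers 1 higher and 1 lower (median 0.03). Their part in the members' differences was not tested.

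In complex I, the members that rose included Ndufa10, Ndufa11 and Ndufc1, and Ndufs8, Ndufa3, Ndufa9 and Ndufa13 fell. Ndufa10, an accessory subunit (chromosome 1 at 92372271 to 92375228, mm7), had 12.44, 12.65 and 12.56 in the deficient clones and 12.26, 12.12, 12.03 and 12.29 in the control lines. The groups did not overlap, and the difference was 0.37 ± 0.0816 (limma, adjusted p = 0.0101). Ndufc1 had 14.26, 14.19 and 14.24 against 13.73 to 13.93 and rose by 0.41 ± 0.0547 (adjusted p = 0.00142). Ndufa11 had 11.58, 11.98 and 11.93 against 10.95 to 11.48 and rose by 0.58 ± 0.148 (adjusted p = 0.0176), with 0.51 and 0.54 and no call without clone A6 or B2 (adjusted p = 0.0665 and 0.0641). Ndufs8, an iron-sulfur subunit, had 11.60, 11.73 and 11.53 against 12.01, 11.94, 11.96 and 11.93. It fell by 0.34 ± 0.0533 (limma, adjusted p = 0.00264), and the difference read 0.03 without normalization between arrays. V6.5 ESC and MEF, also read on the first day, had 11.49 and 11.62, and the second-day differentiating clones had 12.01, 12.14 and 12.14. All first-day RNAs thus lay below all second-day lines for this gene, and the part of the scan day was not tested. Ndufa3 and Ndufa9 fell by 0.40 and 0.27, while a second, dim Ndufa3 probe gave 0.04. The fall of Ndufa13 (-0.44, adjusted p = 0.0492) sat at the threshold, and the groups overlapped.

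In complex IV, Cox7a2l (chromosome 17 at 81796940 to 81796999, mm7) had 13.09, 13.09 and 13.03 in the deficient clones against 13.61, 13.56, 13.61 and 13.55 in the control lines. All 3 clones were lower than all 4 lines, and the gene fell by 0.51 ± 0.0358 (limma, adjusted p = 0.000199). Of the other first-day RNAs, V6.5 ESC had 13.26 and MEF 13.72, so MEF did not share the low level. Cox5b fell by 0.27 ± 0.0349 (adjusted p = 0.00118). Cox6b2 rose by 0.35 ± 0.0649 (adjusted p = 0.005). Cox8c had 7.94, 8.01 and 7.97 in the clones against 7.10, 6.95, 7.01 and 7.85 in control lines 3 to 6, so that line 6 stood near the clones and the other 3 lines did not. It rose by 0.74 ± 0.217 (adjusted p = 0.0293). With any 1 of the clones or of control lines 3 to 5 left out the difference was 0.65 to 0.76 and was not called (adjusted p = 0.0678 to 0.0858), and it was 0.95 without control line 6 (adjusted p = 0.00022). The isoforms Cox4i1 (-0.25, adjusted p = 0.172), Cox7a1 (0.37, 0.0905), Cox7a2 (0.07, 0.286), Cox7b (-0.20, 0.357), Cox6a1 (0.01, 0.958), Cox6a2 (-0.02, 0.863), Cox6b1 (0.09, 0.255), Cox8a (-0.13, 0.148), Cox8b (-0.14, 0.0504), Cox4i2 (0.03, 0.538) and Ndufa4 (0.04, 0.52) did not pass the test.

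In complex V, the c-subunit genes Atp5g1 and Atp5g2 were called in opposite directions. Atp5g1 (chromosome 11 at 96182649 to 96182708, mm7) had 14.46, 14.53 and 14.40 in the deficient clones against 14.03, 14.07, 14.00 and 14.08 in the control lines and rose by 0.42 ± 0.0442 (adjusted p = 6e-04). Atp5g2 fell by 0.28 ± 0.0686 (adjusted p = 0.0164), and Atp5g3 did not pass the test (0.10, adjusted p = 0.434). Atp5e, the epsilon subunit of the central stalk, had 15.30, 15.23 and 15.27 against 14.61 to 14.85 and rose by 0.51 ± 0.0632 (limma, adjusted p = 0.00105). The other first-day RNAs, V6.5 ESC and MEF, had 15.48 and 15.34, and the second-day differentiating clones had 15.06, 14.98 and 14.99. For this gene too all first-day RNAs thus lay on 1 side of all second-day lines, and the part of the scan day was not tested. Atp5k rose by 0.39 ± 0.0560 (adjusted p = 0.00179). In complex III, Uqcrb rose by 0.34 ± 0.0726 (adjusted p = 0.00892). Among the core subunits, Ndufs1, Ndufs7, Ndufv1, Sdha, Sdhb, Uqcrc1, Uqcrfs1, Cyc1, Cox4i1, Cox5a, Atp5a1, Atp5b and Atp5c1 were not called in both fits, and their differences ran from -0.25 for Cox4i1 to 0.11 for Sdhb.

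The differentiating state of the 3 clones was compared with the deficient state of the same clones as pairs, again across the scan days. Of all genes 52.7% were called, 33.3% higher and 19.3% lower, and of the members 30 were called higher and 9 lower, with medians of 0.08 and 0.07. Both fits called 17 members higher and 6 lower, where they called 18.1% and 12.4% of all genes. The members that rose were 8 of complex I, 6 of complex IV, 1 each of complexes II and V, and Atp5s. Without normalization between arrays, 4.96% rather than 63.3% of all calls were higher, the median of all genes was -0.44 rather than 0.07, and 10 members were called higher and 38 lower. Without clone A6, 0 members and 0 of all 25205 genes were called. At an unadjusted p under 0.05 that fit gave 23 members higher and 9 lower, where 10467 of all genes passed in either direction. Without clone B2, 15 members were called higher and 4 lower, where 7067 of all genes were called. Of 13 endoderm markers 12 were called higher and 0 lower in the differentiating state (median 2.00), of 8 pluripotency markers 0 higher and 6 lower (median -0.61), and of 12 fibroblast markers 5 higher and 1 lower (median 0.22). Their part in the members' differences was not tested.

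This comparison shares the deficient clones with the one before, so the values are given side by side. Ndufa13, an accessory subunit of complex I also known as GRIM-19, had 16.34, 15.91 and 15.91 in the differentiating state of clones 8, A6 and B2 and 15.73, 15.24 and 15.25 in the deficient state. It rose in every clone, by 0.65 ± 0.0382 (limma, adjusted p = 0.00385), and had differed by -0.44 between deficient and control. Ndufa3, Ndufs8 and Cox7a2l rose by 0.61, 0.48 and 0.51 and had differed by -0.40, -0.34 and -0.51. The second, dim Ndufa3 probe gave 0.26 here and 0.04 between deficient and control. Ndufa11 and Ndufa10 fell by 0.49 and 0.42 and had differed by 0.58 and 0.37. Against the control lines read on their own day, the differentiating clones differed in these 6 genes by -0.05 to 0.21. None of these 6 passed the test there.

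Further members rose or fell between the states. Sdhd, a membrane anchor of complex II, had 14.69, 14.72 and 14.64 in the differentiating state and 14.15, 14.13 and 14.16 in the deficient state. The states did not overlap in any clone, and the gene rose by 0.53 ± 0.0427 (adjusted p = 0.00394). Cox8a rose by 0.52 ± 0.0402 (adjusted p = 0.00393), Ndufa6 by 0.42, Cox6a1 by 0.39, Cox4i1 by 0.37, Ndufb7 by 0.37, and Ndufb8 and Ndufb10 by 0.35 each. Cox8b, not above background in the deficient clones, was at least 1.25-fold higher in the differentiating state (adjusted p = 0.00718), but read -0.27 without normalization between arrays. Cox4nb had 12.42, 11.91 and 12.13 against 13.09, 13.06 and 12.89 and fell by 0.85 ± 0.109 (adjusted p = 0.00719), the lowest value among the members. Atp5g2 rose by 0.43, and Atp5g3 and Atp5e fell by 0.27 and 0.26. Among the isoforms not called in both fits were Cox7a1 (-0.03), Cox6b2 (-0.02), Cox6a2 (0.02), Cox6b1 (0.04), Cox7a2 (0.11), Cox7b (0.28), Cox8c (-0.27), Ndufa4 (0.13) and Atp5g1 (-0.28). Of the core subunits, Cox4i1 rose, Ndufs7 (0.23) and Uqcrc1 (0.35) were called in the separate-channel fit only, and 10 lay between -0.15 and 0.19 without a call.

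Some members differed between lines of the same kind rather than between kinds. On chromosome 8, Cox4i1, Ndufa13 and Ndufb7 were higher in clone 8 than in clones A6 and B2 in both states. Cox4i1 (chromosome 8 at 119308998 to 119309057, mm7) had 16.10 in clone 8 and 15.59 and 15.58 in clones A6 and B2 in the deficient state, and 16.38 against 15.96 and 16.03 in the differentiating state. The excess of clone 8 was 0.52 for Cox4i1, 0.48 for Ndufa13 and 0.43 for Ndufb7 in the deficient state, and 0.38, 0.43 and 0.39 in the differentiating state. Cox4nb, whose probe lies close to that of Cox4i1, had an excess of 0.11 and 0.40. Over all 1191 genes placed on chromosome 8 the median excess of clone 8 was 0.08 and 0.09, and over members on other chromosomes it was 0.05 and -0.04. Without clone 8, Cox4i1 was called lower in deficient than in control iPSC (-0.42, adjusted p = 0.00477, against -0.25 with it).

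Atp5f1 (now Atp5pb; chromosome 3 at 105761241 to 105761300, mm7) was high in clone B2 alone. It had 16.01 in the deficient and 16.02 in the differentiating state of clone B2, against 15.39 to 15.47 in clones 8 and A6 and 15.26 to 15.37 in the control lines. The excess of clone B2 was 0.60 and 0.57, while Ndufb5 and Ndufc1 on the same chromosome had -0.22 and 0.02 in the deficient state and -0.05 and 0.17 in the differentiating state. The other probes of Atp5f1 disagreed between deficient and control iPSC, at 0.43 and -0.13. On the X chromosome, control line 6 was above lines 3 to 5 by 0.57 for Cox7b, 0.52 for Ndufa1 and 0.37 for Ndufb11, while the 912 genes placed on that chromosome had a median of 0.05. Eif2s3y, a gene of the Y chromosome, had 12.03, 11.86, 12.86 and 7.94 in control lines 3 to 6, and 12.32, 8.49 and 8.10 in deficient clones 8, A6 and B2. Its level was thus low in control line 6 and in clones A6 and B2. Whether it bears on these members was not tested.

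**Figure D5:**
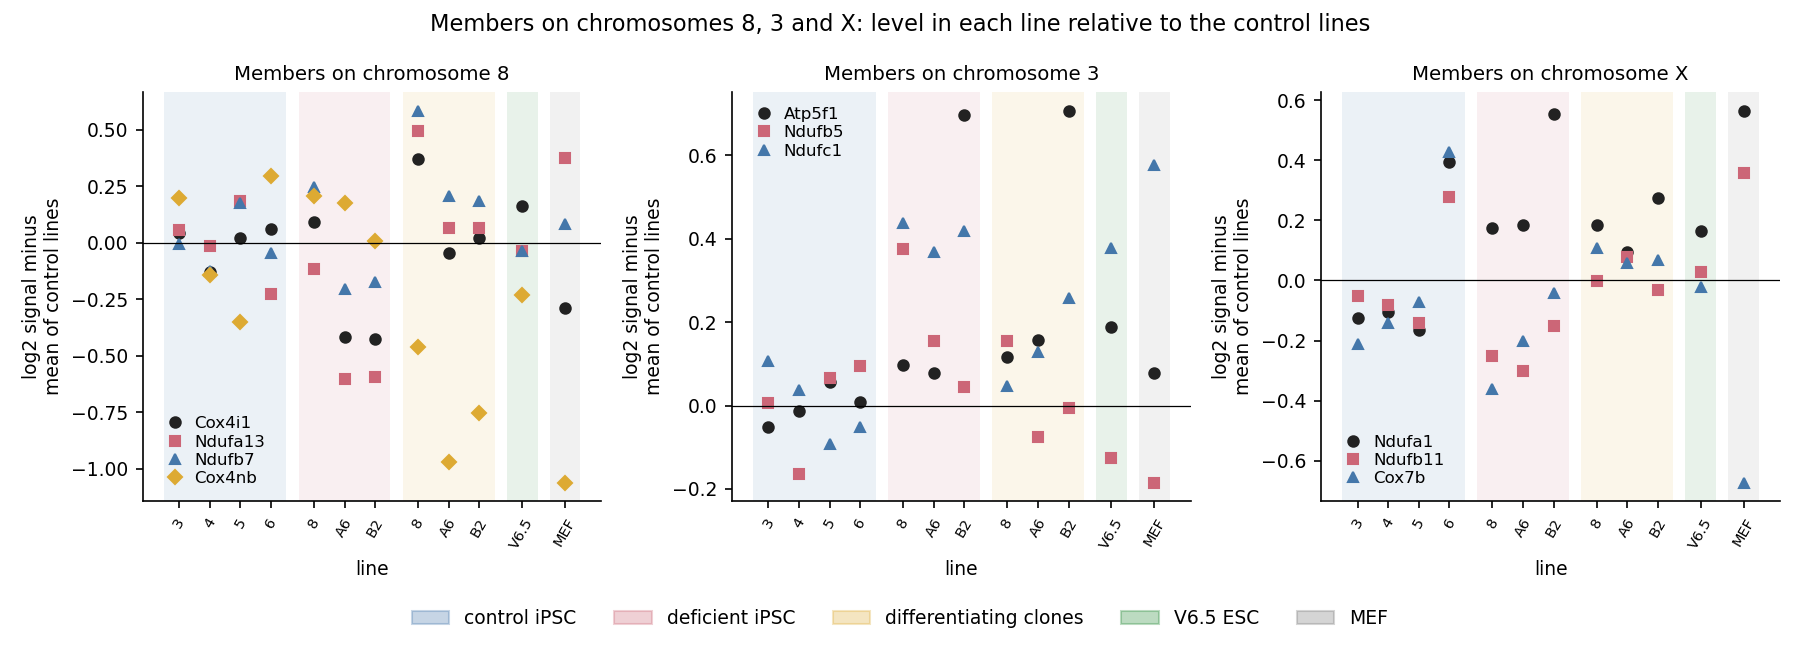
Level of the members on chromosomes 8, 3 and X in each line (vertical axes, log2 signal minus the mean of the 4 control lines; each point is 1 line, shading gives the kind). On chromosome 8, Cox4i1, Ndufa13 and Ndufb7 are higher in clone 8 than in A6 and B2 in both states; on chromosome 3, Atp5f1 stands out in clone B2; on the X chromosome all 3 members are highest among the control lines in line 6.

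RefSeq promoters (250 bases before the start, GRCm38.p6) were matched for 65 of the 80 structural subunits, through 70 promoters out of 32851 in the table. The motif of NRF1, a regulator known for its part in respiratory gene expression, was searched as GCGCANGCG on both strands and found for 14 of the 65 subunits (21.5%), against 5.86% of all 27025 genes. The GABP/ETS motif CCGGAAGT was found for 3 (4.62% against 3.23%) and the YY1 motif AAGATGGCG for 1 (1.54% against 0.71%). A TATA box, searched as TATAAA, was found for 5 (7.69% against 14.3%). The 4 promoters printed above held none of these letters in these windows. The subunit promoters had a median of 14 CpG in 250 bases (1 to 35), against 6 (0 to 56) in all promoters.

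Genes that work beside the chain were read for comparison. The counts can be set against all genes, of which 3.48% rose and 1.84% fell against V6.5 ESC, 28.1% and 30% against MEF, and 2.27% and 2.45% between differentiating clones and control lines. Of 75 mitochondrial ribosomal protein genes, whose products translate the subunits encoded in mitochondrial DNA, 15 rose and 3 fell in deficient iPSC against V6.5 ESC, with a median difference of 0.13, where the respiratory chain members had -0.12. Against MEF 45 rose and 12 fell, and between differentiating clones and control lines 3 rose and 2 fell with a median of -0.02. Of 47 assembly factors, 6 rose and 2 fell against V6.5 ESC, 14 rose and 11 fell against MEF, and 2 rose and 1 fell between differentiating clones and control lines. Of 14 genes of the citric acid cycle, 1 rose and 1 fell against V6.5 ESC, 4 rose and 5 fell against MEF, and 0 were called between differentiating clones and control lines. Of 11 genes of coenzyme Q synthesis, 0 were called against V6.5 ESC, 6 rose and 1 fell against MEF, and 0 rose and 1 fell between differentiating clones and control lines. Of 20 regulators of mitochondrial genes, 1 was called higher against V6.5 ESC, 1 rose and 0 fell between differentiating clones and control lines, and 13 rose and 1 fell against MEF. Tfam, which packages mitochondrial DNA, rose against MEF by 1.41 (adjusted p = 1.88e-07).

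The mobile carrier between complexes III and IV differed by isoform. Cyct, the testis form of cytochrome c, had 13.93, 13.97 and 14.10 in the deficient clones, 11.87, 12.51, 12.69 and 13.11 in the control lines, 13.28, 13.52 and 13.36 in the differentiating clones, 13.16 in V6.5 ESC and 7.66 in MEF. MEF lay far below every pluripotent RNA, and the deficient clones lay above all control lines. The difference from MEF was 6.46 ± 0.269, or 88.3-fold (limma, adjusted p = 3.06e-12). Cycs, the somatic form, had 14.53 to 15.00 over all lines and differed from MEF by -0.01 ± 0.0930 (adjusted p = 0.915).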

How the data were processed

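Per the file headers, Agilent Feature Extraction 10.1.1.1 gave the mean intensity and local background of each spot and dye on 18 arrays (36 channels). The deposited value table holds log2 ratios, made with limma per the submitters' processing notes; its direction, not stated, was read from the values (correlations of 0.788 to 0.957 in size with the arrays' own ratios), and it served as an alternative only.

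Intensities were normalized with limma (version 3.58.1) under R 4.3.3: normexp (offset 50), loess within arrays and Aquantile between arrays, which hides a shift of most genes together. Of 41174 non-control probes, 36965 passed the filter, which asked that a share of at least 0.5 of the channels of some kind of RNA exceed background clearly. Outlier spots (at most 0.447% of an array) were left out, and no spot was saturated. Positions are those of the files (mm7), and exons were not determined.

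A separate-channel fit (line, state and dye; intraspot correlation 0.811) gave 1 log2 value per line. Groups were compared with lmFit and eBayes, two-sided, and the states of the 3 clones as pairs. V6.5 ESC and MEF were compared through the log ratios, in 1 model over the 18 arrays that included dye. Arrays were the replicates there, and the dye effect came from the 12 second-day arrays, since the first-day arrays had no dye swap. On simulated data with this layout the separate-channel fit called too many unchanged genes for deficient against control and for differentiating against deficient. The mean of each line's channels (dye effect taken off) did not. No effect of scan day or slide was simulated. The planned fit was kept, with its calls beside those of the channel means. Control and differentiating channels with the same replicate number shared arrays, and that number as a block was an alternative.

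Named members are the 14 core subunits, the isoform groups (17 of 19 names found) and, per comparison, the 6 called members that rose most and the 6 that fell most; others are examples chosen after their values were seen. The values of 1 member are not reported here. The members, gene lists and rules were chosen with earlier results of these data known. Precision is limited by how few lines and arrays there are.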

Additional observations from a re-analysis of the deposited data

Results flagged for a closer look

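Within the 4 control lines, 3 of the 83 members had a line that stood apart from the others beyond the limit of Dixon's test for 4 samples. Chance alone gives about 1 such group in 20, so 3 of 83 is no more than chance gives. The share over all genes was not counted, and the 3 are given as description only. In each of them the line that stood apart was control line 6, which was the highest. Ndufa1, a small membrane subunit of complex I encoded on the X chromosome, had 14.59 in control line 6 and 14.03 to 14.09 in the other 3 lines (Dixon ratio 0.888). Atp5g3, a c-subunit gene of ATP synthase on chromosome 2, had 16.39 against 16.07 to 16.13 (0.832). Cox8c, the testis form of subunit VIII of complex IV on chromosome 12, had 7.85 against 6.95 to 7.10 (0.835), and 2 of the 12 control channels did not lie well above background for it.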

How the results depend on the processing

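Without normalization between arrays, deficient against control iPSC gave 59 members higher and 2 lower (15 and 11 as reported) and differentiating against deficient gave 10 and 38 (30 and 9); Ndufs8 and Ndufs7 then read 0.03 and 0.17 in the first comparison, and Ndufs7 and Cox8b read -0.05 and -0.27 in the second. With the scanner's processed signals, 6 members were lower in deficient than in control iPSC and 4 were higher in differentiating clones than in control lines. In that setting 16 were higher in differentiating than in deficient clones, 4 were higher than in V6.5 ESC and 15 were lower than in MEF. Of all genes it called 11991, 1094, 12946, 3504 and 15168 in these 5 comparisons. The reported fit called 11699, 1188, 13273, 1341 and 14645. Against V6.5 ESC, 45% of its calls over all genes were higher with processed signals, against 65.3% as reported. Without background correction 5 were higher than in V6.5 ESC, and with the mean of all probes 1 was lower in differentiating clones than in control lines. Over all genes these 2 fits called 3736 (41.2% of them higher) and 1231. The deposited table gave 49 higher and 3 lower for differentiating clones against control lines and 5 higher than in V6.5 ESC. Against V6.5 ESC the fit on this table called 3717 of all genes. For differentiating clones against control lines, that fit took the arrays rather than the lines as replicates. Its count therefore mixes a change of values with a change of replicate, and it called 8707 of all 25205 genes. In the fit with the replicate block (each clone against the control channels that carry its replicate number), differentiating clones had 26 members higher and 2 lower than control lines. Those numbers also mark the slide, and that fit compares clones with arrays of the same slide rather than lines with lines.

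Leaving out each line in turn gave 12 to 17 members higher and 5 to 12 lower for deficient against control iPSC, 0 to 21 higher and 0 lower for differentiating clones against control lines, 0 to 35 higher and 0 to 9 lower for differentiating against deficient clones, 0 to 2 higher and 10 to 24 lower against V6.5 ESC, and 27 higher and 23 to 28 lower against MEF. Over all genes, the fits with a line left out called 0 to 3508 for differentiating clones against control lines. They called 8982 to 13878 for deficient against control iPSC, 381 to 1429 against V6.5 ESC and 13065 to 13680 against MEF. For differentiating against deficient clones they called 0 to 14721. For deficient against control iPSC the count of members lower was 5 without clone A6 and 6 without clone B2, control line 4 or control line 5. Among alternatives chosen after seeing the data, leaving out the dimmest array gave 19 higher and 1 lower for differentiating clones against control lines. The mean of each line's channels gave 7 lower for deficient against control iPSC, 0 higher for differentiating clones against control lines and 17 higher for differentiating against deficient clones. The cause of these shifts was not tested. Each left-out fit also had fewer lines, and the part of that was not tested either. Signal over background limits Cox8b, Cox8c and Cox4i2, and every other member lay well above it in all channels.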
